A study of Homo sapiens with 12 samples.

Results

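HepG2 and LM3 cells that had received the control siRNA siNC were compared by bulk RNA sequencing, with 3 libraries from each line. The libraries were those whose labels name the line and siNC, 6 of 12 in all. Of 8842 listed genes, 8176 had a value of at least 1 in 3 or more of these 6 libraries and were tested, and 666 were not. The study followed the long noncoding RNA FASRL in hepatocellular carcinoma, and its other 6 libraries are from the same lines given siFASRL, an siRNA against that RNA. Poly(A) RNA was captured with oligo(dT) and sequenced on a BGISEQ-500. HepG2 and LM3 are established human liver cancer lines, which the study bought from different vendors and grew in DMEM or RPMI medium with fetal bovine serum. Which medium went with which line is not given in the sources used here. The line, its vendor and anything handled with it therefore cannot be told apart. Nothing in the labels says that the 3 libraries of a group came from separate cultures, so p-values measure only the spread between these libraries.

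Hepatocytes make most of the proteins of blood plasma, among them albumin, the apolipoproteins and the clotting factors, and a small network of transcription factors including HNF4A and the FOXA proteins keeps these genes on. Liver cancer lines keep this program to different degrees, and some carry transcripts of fetal liver such as AFP. Loss of the epithelial state is commonly followed through the adhesion proteins E-cadherin and N-cadherin and the filament protein vimentin.

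Values are RSEM expression values, taken here as scaled to gene length and to the library, although their unit is not stated. On that reading these values can be set beside each other between genes. Summed over the listed genes they came to 333193, 334088 and 338379 in HepG2 and 316534, 320399 and 321859 in LM3. The read depth behind them is unknown. The list itself was uneven between the lines. Between 0.192% and 0.204% of the listed genes were at 0 in a HepG2 library, against 2.69% to 3.56% in an LM3 library, and how the listed genes had been chosen is not stated. The numbers of genes higher in each line therefore cannot be told apart from the make-up of the list. Within each line the libraries were close, with r across genes from 0.9954 to 0.9988, and genes are not independent replicates. HepG2 replicate 2 and LM3 replicate 1 stood farthest from the others of their line, and their deviations from the line means ran opposite across genes, with r = -0.646.

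Products of hepatocytes were among the largest differences between the lines. SERPINA1, which encodes the protease inhibitor alpha-1 antitrypsin, had values of 1435, 1432 and 1310.3 in HepG2 and 0.08, 1.73 and 1.26 in LM3. ALB, the gene of serum albumin, had 851, 805 and 789.8 in HepG2 and 0.06, 0.62 and 0.4 in LM3. Both are shown for the size of their difference, and ALB passed the filter through HepG2 alone. On the log2(value + 1) scale the differences were 9.53 and 9.25, with standard errors of 0.295 and 0.138. In the opposite direction, FOLR1, a folate receptor held in the cell membrane, had values of 1901, 1743 and 1790.2 in LM3 and 5.45, 4.81 and 7.02 in HepG2. ALPL, the tissue-nonspecific alkaline phosphatase, had 376, 362 and 352 in LM3 and 1.21, 1.48 and 1.09 in HepG2. The log2 differences of HepG2 minus LM3 were -8.08 for FOLR1 and -7.34 for ALPL, with limma adjusted p-values of 2.24e-10 and 9.56e-11.

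**Figure D1:**
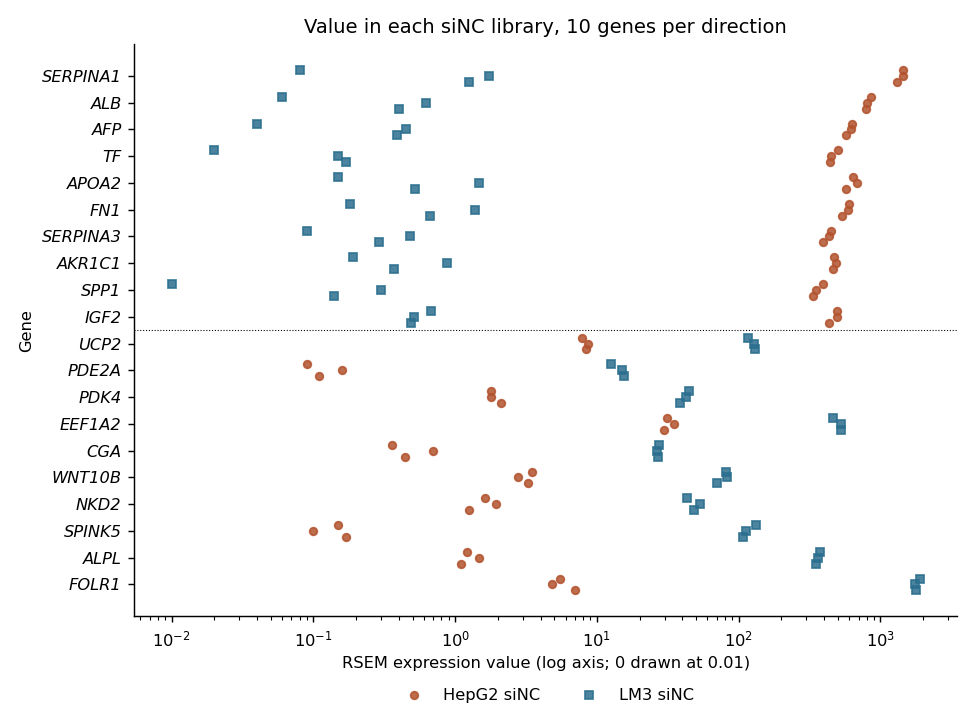
RSEM expression value (log axis, with 0 drawn at 0.01) in each of the 6 siNC libraries for the 10 genes with the largest log2 difference in each direction, HepG2 as circles and LM3 as squares. FOLR1 ran from 1743 to 1901 in LM3 and from 4.81 to 7.02 in HepG2. These libraries also chose the genes, so that the gap between the lines restates the choice.

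Across the 8176 tested genes, 1911 (23.4%) differed by at least 1 on the log2 scale with a limma adjusted p under 0.05. Of these, 1278 (15.6% of the tested genes) were higher in HepG2 and 633 (7.74%) in LM3. The 6 libraries separated by line for all 1911, and also for 6731 (82.3%) of all tested genes. Of the tested genes, 641 had passed the filter through HepG2 alone and 112 through LM3 alone, and such genes had to differ. Among the 7255 genes that reached 1 in all 6 libraries, 1210 (16.7%) passed the threshold, 654 (9.01%) higher in HepG2 and 556 (7.66%) in LM3. HepG2 thus held 66.9% of the calls among all tested genes. Quantile normalization, which moved the median difference of all tested genes from -0.003 to -0.139, gave 53.5% for HepG2 and 46.5% for LM3. Differences of 4 or more on the log2 scale were called for 121 genes toward HepG2 and 6 toward LM3, and among genes that reached 1 in all 6 libraries for 14 and 4. Without HepG2 replicate 2 and LM3 replicate 1, a check chosen after these values were seen, 1262 genes were higher in HepG2 and 669 in LM3.

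**Figure D2:**
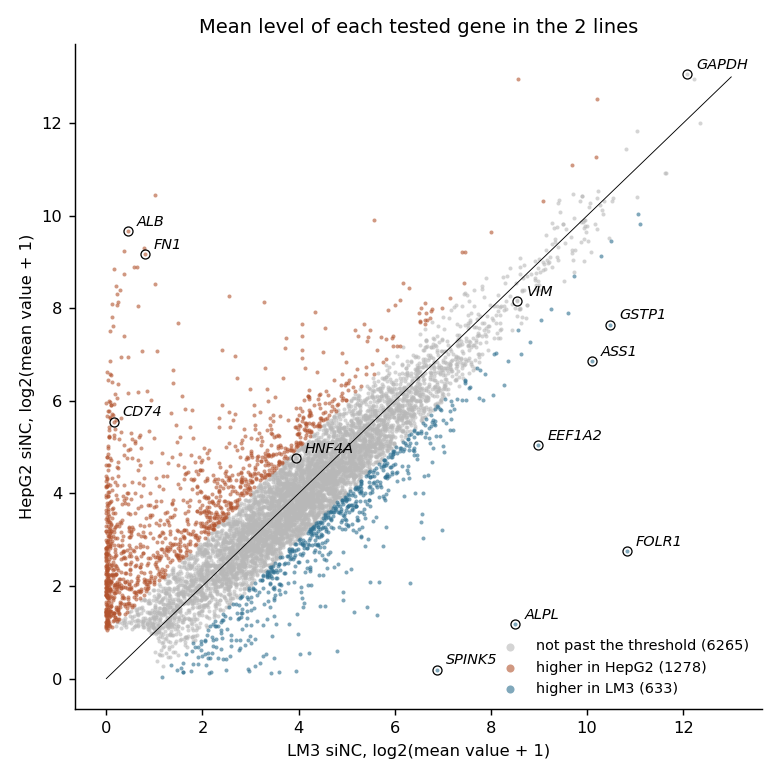
Mean level of the 8176 tested genes as log2(mean value + 1), LM3 siNC on the x axis and HepG2 siNC on the y axis, with 1 point per gene and the line of equal levels drawn. Some of the 1278 genes higher in HepG2 form a column at the left edge where LM3 is near 0, and 654 of them reached 1 in all 6 libraries. Of the 633 genes higher in LM3, 556 did so.

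Of 11 hepatocyte markers, 8 were listed and 3 were not (FGB, CPS1 and CYP3A4). Their summed value was 3490, 3431 and 3163 in the HepG2 libraries and 14.7, 17.6 and 16.7 in the LM3 libraries, and the most abundant of them in LM3 was HNF4A. APOB, the structural protein of low-density lipoprotein, had 329, 325 and 290.5 in HepG2 and 0.03, 0.32 and 0.17 in LM3. TTR, a carrier of thyroid hormone, reached 12, 10.7 and 12.1 in HepG2 and 0, 0 and 0.05 in LM3. ALB, APOA1, APOB, TTR, TF and ASGR1 passed the filter through HepG2 alone, and of the 8 only HNF4A reached 1 in all 6 libraries. In bulk RNA, fewer cells with a transcript and less of it in each cell cannot be told apart.

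Among the liver transcription factors, HNF4A kept a level in both lines. Its values were 26.8, 27.8 and 23.8 in HepG2 and 14.4, 14.4 and 14.2 in LM3, a log2 difference of 0.82 that did not reach the threshold of 1 although the libraries did not overlap. FOXA2, a factor that opens chromatin early in liver development, had 13.1, 14.1 and 10.4 in HepG2 and 0.06, 0 and 0 in LM3. The log2 difference was 3.72, and the gene passed the filter through HepG2 alone. CEBPA, needed for the adult hepatocyte program, averaged 36.1 ± 6.31 in HepG2 and 10.2 ± 1.93 in LM3 (SD, n = 3 libraries, as for all values given with ±). NR0B2, the corepressor that limits bile acid synthesis, averaged 15.9 ± 1.81 in HepG2 and 0.0833 ± 0.0513 in LM3, and PROX1, a factor of the early liver bud, 10.4 ± 0.553 in HepG2 and 0.0333 ± 0.0153 in LM3. LM3 was the higher line for CREB3L3, a membrane-bound factor of the fasting liver, with 21.4 ± 3.2 in LM3 and 6.6 ± 0.924 in HepG2, and for RXRA, the partner of many nuclear receptors, with 28.2 ± 0.431 in LM3 and 11 ± 0.662 in HepG2. Of 29 factors, 22 were listed and 21 passed the filter, 10 of them through HepG2 alone. Of the 11 with a value of at least 1 in all 6 libraries, 3 (27.3%) were higher in HepG2 and 3 (27.3%) in LM3, beside 9.01% and 7.66% of all 7255 such genes. The median log2 difference was 0.53, beside -0.08.

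Secreted plasma proteins had the largest median difference of the 15 gene lists. Their summed values were 7018, 6854 and 6363 in HepG2, 2.01% of the total, and 322, 345 and 332 in LM3, 0.104% of the total. TF, the iron carrier transferrin, had 501, 448 and 437 in HepG2 and 0.02, 0.15 and 0.17 in LM3. SERPINA3, an inhibitor of neutrophil proteases, averaged 425 ± 30.6 in HepG2 and 0.287 ± 0.195 in LM3. The most abundant plasma protein gene in LM3 was C3, the central complement component, with 76.8, 79.4 and 78.2 in LM3 and 359, 363 and 320.1 in HepG2. ITIH2, whose product binds hyaluronan, averaged 95.3 ± 4.89 in HepG2 and 0.0533 ± 0.0473 in LM3, and the fibrinogen chain FGG 54 ± 3.13 in HepG2 and 0.04 ± 0.0458 in LM3. Haptoglobin, HP, which binds free hemoglobin, averaged 62.1 ± 5.68 in HepG2 and 0.0567 ± 0.0513 in LM3. Of 88 genes, 65 were listed and 62 passed the filter, 46 of them through HepG2 alone. Of the 14 with a value of at least 1 in all 6 libraries, 12 (85.7% beside 9.01%) were higher in HepG2 and the other 2 did not pass the threshold, the complement proteases C1R, with 46.2 ± 2.22 in HepG2 and 76 ± 4.62 in LM3, and C1S, with 36.4 ± 1.17 in HepG2 and 73.7 ± 1.9 in LM3. The median log2 difference of the 14 was 2.24.

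Of the lipoprotein genes, APOA1, APOA2, APOC1 and APOC2 were near 0 in LM3. APOA1 and APOA2 form the protein shell of high-density lipoprotein. APOA1 had 264, 309 and 233 in HepG2 and 0, 0.17 and 0.31 in LM3, and APOA2 had 639, 682 and 569 in HepG2 and 0.15, 1.47 and 0.52 in LM3. APOC1 and APOC2, small exchangeable apolipoproteins of which APOC2 activates lipoprotein lipase, averaged 115 ± 8.62 in HepG2 and 0.0567 ± 0.0493 in LM3 and 87 ± 9.61 in HepG2 and 0.0233 ± 0.0404 in LM3, respectively. SCARB1, the receptor for high-density lipoprotein, averaged 143 ± 9.1 in HepG2 and 110 ± 6.05 in LM3 and did not reach the threshold. Of 38 genes, 28 were listed and 26 passed the filter, 11 through HepG2 alone. Of 14 present at 1 or more in all 6 libraries, 3 (21.4% beside 9.01%) were higher in HepG2 and 1 (7.14% beside 7.66%) in LM3, with a median of 0.36.

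Promoter sequences are shown for 4 named genes that hold a match to a searched string, APOC2 and MAGEB2, on in HepG2 and off in LM3, TFPI2, the reverse, and SPINK5, among the largest differences toward LM3. They come from the RefSeq promoter table on GRCh38.p14, 250 bases upstream of the gene start. Of 30 genes searched, 20 matched 1 entry, 4 several and 6 none, and the genes with the largest differences were added to this search after their values had been seen. Searched on both strands were CAAAGT, part of the sites of HNF4A, and TGANTCA, the AP-1 site. The strings do not contain one another. Capitals mark the matches.
APOC2: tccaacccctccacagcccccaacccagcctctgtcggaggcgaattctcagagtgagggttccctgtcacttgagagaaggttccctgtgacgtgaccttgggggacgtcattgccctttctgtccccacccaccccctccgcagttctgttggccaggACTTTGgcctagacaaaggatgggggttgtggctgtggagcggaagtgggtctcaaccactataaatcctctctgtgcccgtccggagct
MAGEB2: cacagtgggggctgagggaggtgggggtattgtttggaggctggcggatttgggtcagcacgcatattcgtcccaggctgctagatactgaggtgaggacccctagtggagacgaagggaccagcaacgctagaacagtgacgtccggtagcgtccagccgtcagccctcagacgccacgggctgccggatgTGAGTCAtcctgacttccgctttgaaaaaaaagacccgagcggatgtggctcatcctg
TFPI2: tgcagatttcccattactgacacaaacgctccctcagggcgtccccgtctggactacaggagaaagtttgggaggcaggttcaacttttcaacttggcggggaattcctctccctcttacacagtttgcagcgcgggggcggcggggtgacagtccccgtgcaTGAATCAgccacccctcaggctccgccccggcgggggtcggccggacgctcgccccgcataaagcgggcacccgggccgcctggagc
SPINK5: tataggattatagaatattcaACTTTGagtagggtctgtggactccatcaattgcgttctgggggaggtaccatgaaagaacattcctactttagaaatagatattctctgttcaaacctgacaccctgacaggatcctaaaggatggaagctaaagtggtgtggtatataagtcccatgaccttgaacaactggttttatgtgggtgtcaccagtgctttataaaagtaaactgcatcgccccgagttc
The APOC2 window is chr19:44945801-44946050 on the plus strand, with CAAAGT read on the opposite strand. That of SPINK5 is chr5:148063730-148063979 on the plus strand, also with CAAAGT on the opposite strand. MAGEB2 (chrX:30215313-30215562, plus strand) and TFPI2 (chr7:93890754-93891003, minus strand) each have an AP-1 match.

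Of the 20 genes with 1 entry, CAAAGT was found in 3 (APOC2, CGA and SPINK5) and TGANTCA in 2 (MAGEB2 and TFPI2), and 15 held neither of these strings. With the further motif counted as well, 12 held none. Over all 35116 promoters of the table the shares were 10.3% and 6.57%, and over the 10467 of listed genes 7.56% and 4.74%. Over the 275 promoters of genes at 1 or more in every HepG2 library and at most 0.1 in every LM3 library they were 14.2% and 8.36%. A match describes letters in this window and is not evidence of binding.

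Drug and alcohol metabolism held large differences in both directions. AKR1C1, a reductase of steroids and carbonyls, had 472, 483 and 461 in HepG2 and 0.19, 0.88 and 0.37 in LM3, although its sequence is close to that of AKR1C2 and reads may be shared between them. ALDH1A1, which oxidizes retinal, had 102, 90.2 and 101 in HepG2 and 0, 0.04 and 0 in LM3. CYP24A1, which breaks down active vitamin D, averaged 72.2 ± 6.25 in HepG2 and 0.57 ± 0.0917 in LM3. These 3 genes passed the filter through HepG2 alone. GSTP1, a glutathione transferase low in adult hepatocytes, had 1280.3, 1535 and 1491 in LM3 and 195, 206 and 197 in HepG2 and was the most abundant gene of the group in LM3 (log2 difference -2.84, limma adjusted p = 8.30e-09). GSTM4, of the same enzyme class, averaged 106 ± 6.82 in LM3 and 33 ± 2.91 in HepG2, and CYP1B1, a cytochrome P450 found mostly outside the liver, 2.39 ± 0.0907 in LM3 and 0.127 ± 0.0115 in HepG2. Of 100 genes, 52 were listed and 45 passed the filter, 14 through HepG2 alone and 1 through LM3 alone. Of the 26 with values of at least 1 in all 6 libraries, 7 (26.9% beside 9.01%) were higher in HepG2 and 4 (15.4% beside 7.66%) in LM3, with a median of 0.61 that was 0.43 after quantile normalization.

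Of the hepatocyte transporters, ASGR1, a subunit of the asialoglycoprotein receptor, averaged 70.2 ± 3.93 in HepG2 and 0.13 ± 0.0794 in LM3. The citrate transporter SLC13A5 averaged 17.3 ± 1.04 in HepG2 and 0.0233 ± 0.0115 in LM3. SLC38A3, which carries glutamine, averaged 12.9 ± 0.545 in HepG2 and 0.04 ± 0.0529 in LM3, and the ammonium transporter RHBG, also on the list of beta-catenin targets, 12.6 ± 0.984 in HepG2 and 0.247 ± 0.116 in LM3. These 4 genes were near 0 in LM3. SLC51B, a subunit of the basolateral bile acid exporter, was higher in LM3 at 23.6 ± 2.18 in LM3 and 5.44 ± 0.358 in HepG2, as was SLC22A18, an organic cation carrier, at 26.3 ± 2.67 in LM3 and 11.7 ± 2.02 in HepG2, although its log2 difference of -1.11 became -0.98 without HepG2 replicate 1 and no longer passed. Of 41 genes, 22 were listed and all 22 passed the filter, 10 of them through HepG2 alone. Of the 12 with a value of at least 1 in all 6 libraries, 3 (25% beside 9.01%) were higher in HepG2 and 2 (16.7% beside 7.66%) in LM3, with a median of -0.19.

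Mesenchymal and invasive genes held differences in both directions and abundant genes under the threshold. VIM, the intermediate filament vimentin, had 352, 387 and 381 in LM3 and 272, 294 and 286 in HepG2, a log2 difference of -0.39 that stayed under the threshold. CDH2, N-cadherin, had 19.3, 17.3 and 19.5 in HepG2 and 18.1, 18.5 and 19.1 in LM3, and the lines overlapped (log2 difference 0.01, limma adjusted p = 0.944). CD44, a hyaluronan receptor, averaged 64.9 ± 1.72 in LM3 and 46.1 ± 5.19 in HepG2, also under the threshold. FN1, fibronectin, which hepatocytes secrete into plasma as well as mesenchymal cells into matrix, had 603, 588 and 537 in HepG2 and 0.18, 1.38 and 0.66 in LM3. COL3A1, a fibrillar collagen, averaged 31.4 ± 1.05 in HepG2 and 0.0167 ± 0.00577 in LM3, and SPARC, a matrix protein that binds collagen, 7.84 ± 0.517 in HepG2 and 0.05 ± 0.0361 in LM3. The basement membrane collagen COL4A1 was higher in LM3, at 38.8, 39.7 and 38.1 in LM3 and 8.26, 9.05 and 8.82 in HepG2, and LTBP1, which holds latent TGF-beta in the matrix, averaged 15.7 ± 0.369 in LM3 and 2.32 ± 0.112 in HepG2. LOXL1, an enzyme that crosslinks elastin, averaged 5.84 ± 1.24 in LM3 and 0.573 ± 0.0321 in HepG2.

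The transcription factors of the mesenchymal list, singled out after their values were seen, went in different directions. ZEB1, a repressor of CDH1, averaged 11.9 ± 0.931 in LM3 and 4.57 ± 0.122 in HepG2 and was higher in LM3 (log2 difference -1.21, limma adjusted p = 5.25e-07). SNAI2 averaged 8.12 ± 0.518 in HepG2 and 2.49 ± 0.431 in LM3 and was higher in HepG2, by 1.39. SNAI1 was at 5.75 ± 0.401 in HepG2 and 8.16 ± 0.54 in LM3 and ZEB2 at 1.72 ± 0.0839 in HepG2 and 1.1 ± 0.0529 in LM3, neither past the threshold. Of 124 genes of the list, 85 were listed and 79 passed the filter, 7 through HepG2 alone and 1 through LM3 alone. Of the 69 with a value of at least 1 in all 6 libraries, 13 (18.8% beside 9.01%) were higher in HepG2 and 8 (11.6% beside 7.66%) in LM3, 48 passed in neither direction, and the median was -0.19 beside -0.08 for all genes. After quantile normalization the median of the list was -0.23, beside -0.19 for all genes.

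**Figure D3:**
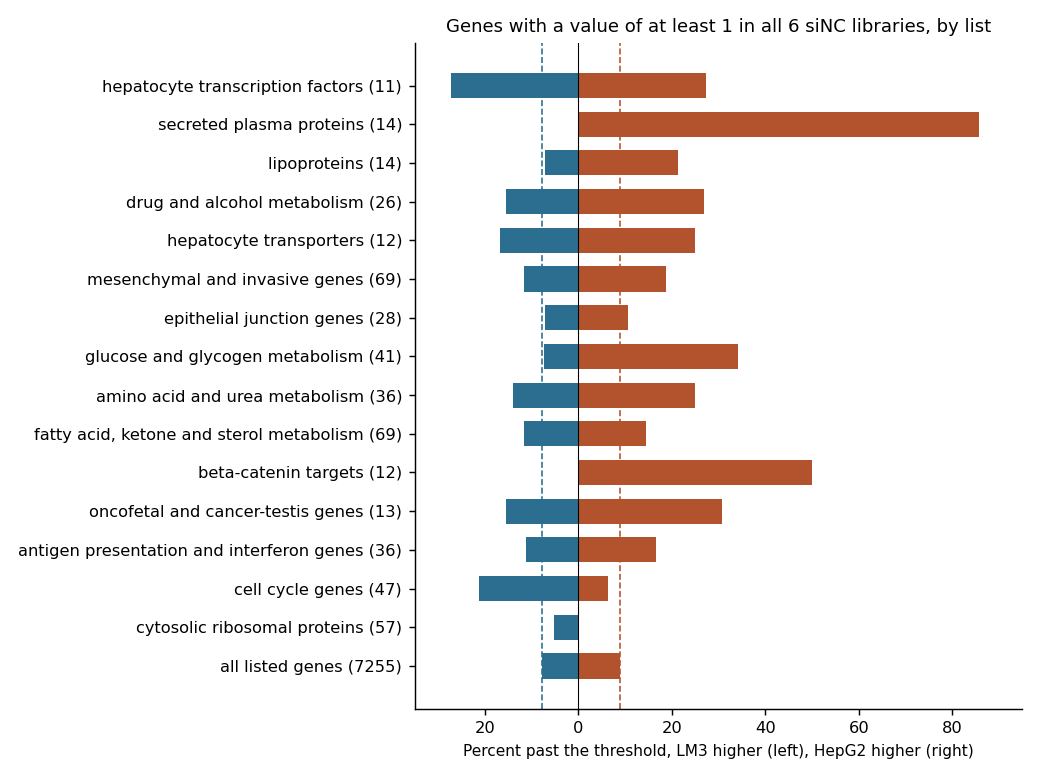
Percent of genes past the threshold in each of 15 gene lists (members in parentheses) and in all genes, counting genes that reached 1 in all 6 siNC libraries, LM3 higher to the left and HepG2 higher to the right. Dashed lines mark 7.66% and 9.01% over all 7255 genes, and secreted plasma proteins reach 85.7% on the HepG2 side.

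The epithelial genes differed in single members. CDH1, E-cadherin, had 8.23, 7.63 and 7.21 in HepG2 and 0.47, 0.61 and 0.63 in LM3. EPCAM, an adhesion protein of epithelia and liver progenitors, had 33.3, 30.8 and 30.3 in HepG2 and 4.84, 5.77 and 5.5 in LM3. KRT19, a keratin of bile ducts, had 121, 143 and 102 in HepG2 and 0.09, 0.48 and 0.51 in LM3. Their log2 differences were 2.47, 2.35 and 6.50, and CDH1 and KRT19 passed the filter through HepG2 alone. VIL1, which bundles actin in microvilli, averaged 39.1 ± 3.12 in HepG2 and 0.23 ± 0.0781 in LM3, and the adhesion molecule CEACAM1 22.6 ± 0.63 in HepG2 and 0.173 ± 0.0473 in LM3. KRT18, the keratin of simple epithelia, was abundant in both lines, at 658, 732 and 694 in HepG2 and 855, 998 and 969 in LM3, and did not reach the threshold. MUC1, a membrane mucin, was higher in LM3 at 348, 304 and 268 in LM3 and 85, 82.8 and 71.2 in HepG2, and the membrane protease ST14 averaged 6.64 ± 0.497 in LM3 and 1.48 ± 0.214 in HepG2. Of 69 genes, 41 were listed and 38 passed the filter, 10 through HepG2 alone. Of 28 with a value of at least 1 in all 6 libraries, 3 (10.7%) were higher in HepG2 and 2 (7.14%) in LM3, close to the 9.01% and 7.66% of all such genes, and the median was 0.14, or 0 after quantile normalization.

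Genes of glucose metabolism were more often higher in HepG2 than in LM3. The summed values of its genes were 16163, 17169 and 15608 in HepG2 and 7869, 8736 and 8584 in LM3, and GAPDH, the most abundant, accounted for 8301, 9318 and 7975 in HepG2 and 3877, 4641 and 4516 in LM3. The log2 difference of GAPDH was 0.97, and 0.10 after quantile normalization. SLC2A3, a high-affinity glucose transporter, had 259.8, 241 and 224 in HepG2 and 21, 19.4 and 17.8 in LM3. PPP1R3C, which brings a phosphatase to glycogen, averaged 23.6 ± 0.659 in HepG2 and 1.8 ± 0.215 in LM3, and the glycogen branching enzyme GBE1 51 ± 2.47 in HepG2 and 7.35 ± 0.747 in LM3. For these 3 genes all HepG2 libraries were higher. PDK4, a kinase that shuts pyruvate dehydrogenase, had 44.4, 42.2 and 38.5 in LM3 and 1.8, 1.79 and 2.1 in HepG2. HKDC1, a hexokinase, averaged 30.7 ± 1.15 in LM3 and 3.94 ± 0.0764 in HepG2, and PFKFB2, which sets the level of a glycolytic activator, 17.5 ± 1.23 in LM3 and 6.38 ± 0.761 in HepG2. Chosen after their values were seen, the glycolytic enzymes ENO1 and ALDOA averaged 2189.8 ± 50.3 in HepG2 and 818 ± 16.3 in LM3 and 1279.7 ± 39.4 in HepG2 and 538 ± 8.17 in LM3, respectively. Of 70 genes, 46 were listed and all passed the filter, 4 of them through HepG2 alone. Of 41 with a value of at least 1 in all 6 libraries, 14 were higher in HepG2 (34.1% beside 9.01% of all genes) and 3 in LM3 (7.32% beside 7.66%). Their median was 0.76, and 0.65 after quantile normalization.

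In amino acid metabolism ASS1, the urea cycle enzyme that makes argininosuccinate, was the largest difference toward LM3, with 1085, 1128 and 1065 in LM3 and 112, 114 and 118 in HepG2 (log2 difference -3.24, limma adjusted p = 5.22e-10). KYNU, which cleaves kynurenine in tryptophan breakdown, had 124, 113 and 131 in HepG2 and 0.03, 0.43 and 0.23 in LM3. BCAT1, a transaminase of branched-chain amino acids, averaged 11.9 ± 0.114 in HepG2 and 0.0933 ± 0.0577 in LM3. Both were near 0 in LM3, while PCBD1, which recycles the cofactor tetrahydrobiopterin, was higher there at 145 ± 13.8 in LM3 and 58.8 ± 3.79 in HepG2. GPT, alanine transaminase, averaged 4.01 ± 0.543 in LM3 and 1.19 ± 0.116 in HepG2, and glutamine synthetase, GLUL, was at 31.7 ± 0.786 in HepG2 and 28.5 ± 1.24 in LM3 without reaching the threshold. Of 82 genes, 54 were listed and 52 passed the filter, 13 through HepG2 alone. Of 36 with a value of at least 1 in all 6 libraries, 9 (25% beside 9.01%) were higher in HepG2 and 5 (13.9% beside 7.66%) in LM3, with a median of 0.18.

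Genes of lipid metabolism differed in both directions. ACACA, the acetyl-CoA carboxylase that starts fatty acid synthesis, had 30.5, 31.9 and 29.9 in LM3 and 13.4, 13.1 and 14.2 in HepG2. FASN, fatty acid synthase, had 100.3, 128 and 99.7 in HepG2 and 74.3, 96.3 and 92.1 in LM3, a log2 difference of 0.32 that did not reach the threshold. HMGCS1, an early enzyme of cholesterol synthesis, had 57.4, 55.5 and 53.9 in LM3 and 15.2, 15.1 and 14.5 in HepG2. For ACACA and HMGCS1 all LM3 libraries were higher (log2 differences -1.13 and -1.83). INSIG1, which retains sterol sensors in the endoplasmic reticulum, averaged 65.4 ± 5.27 in LM3 and 18.4 ± 1.53 in HepG2, and AGPAT2, of glycerolipid synthesis, 86.8 ± 16.8 in LM3 and 26 ± 4.49 in HepG2. PLIN2, the coat protein of lipid droplets, was higher in HepG2 with 132, 136 and 107 in HepG2 and 5.31, 5.69 and 5.05 in LM3. FABP1, the liver fatty acid binding protein, had 20.2, 12.1 and 17.7 in HepG2 and was listed at 0 in all 3 LM3 libraries. ELOVL2, which extends long polyunsaturated fatty acids, averaged 9.09 ± 0.736 in HepG2 and 0.16 ± 0.0964 in LM3. Of 98 genes, 77 were listed and 73 passed the filter, 4 through HepG2 alone. Of 69 with a value of at least 1 in all 6 libraries, 10 (14.5% beside 9.01%) were higher in HepG2 and 8 (11.6% beside 7.66%) in LM3, and 51 passed in neither direction, with a median of -0.26.

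Targets of beta-catenin were higher in HepG2 wherever they passed the threshold. NOTUM, a secreted inhibitor of Wnt proteins, had 125, 158 and 121 in HepG2 and 0.43, 0.86 and 0.71 in LM3. NKD1, an intracellular inhibitor of the pathway, had 43.6, 40 and 39.6 in HepG2 and 0.08, 0.15 and 0.17 in LM3. AXIN2, a feedback inhibitor in the destruction complex, had 26.9, 28.3 and 24.6 in HepG2 and 7.59, 7.28 and 6.65 in LM3. NOTUM and NKD1 passed the filter through HepG2 alone. Toward LM3 stood 2 genes of the Wnt pathway that were not on the list, the ligand WNT10B, with 81.7, 82.6 and 70.8 in LM3 and 3.48, 2.77 and 3.25 in HepG2, and NKD2, a relative of NKD1, with 43, 53.4 and 48.7 in LM3 and 1.62, 1.94 and 1.26 in HepG2. Of 27 targets, 17 were listed and passed the filter, 5 through HepG2 alone. Of 12 with a value of at least 1 in all 6 libraries, 6 were higher in HepG2 (50% beside 9.01% of all such genes) and none in LM3 (beside 7.66%), with a median of 1.10.

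Oncofetal genes were among the largest differences. AFP, the fetal counterpart of albumin, had 632, 616 and 567 in HepG2 and 0.04, 0.45 and 0.39 in LM3. The growth factor IGF2 had 493, 492 and 434 in HepG2 and 0.68, 0.51 and 0.49 in LM3. GPC3, a cell surface proteoglycan of fetal liver, had 356, 335 and 309.8 in HepG2 and 0.04, 0.43 and 0.17 in LM3. All 3 passed the filter through HepG2 alone. MAGEB2, a cancer-testis antigen on the X chromosome, averaged 62.5 ± 2.57 in HepG2 and 0.04 ± 0.0458 in LM3, and SOX9, a factor of bile duct and progenitor cells, 34.2 ± 4.17 in HepG2 and 0.513 ± 0.0737 in LM3. PAGE1, a cancer-testis gene from a family of close copies between which reads may be shared, was higher in LM3 at 94.2, 92 and 89.3 in LM3 and 8.22, 9.44 and 10.8 in HepG2, as was SALL4, a factor of embryonic stem cells and fetal liver, at 7.03 ± 0.508 in LM3 and 1.22 ± 0.0603 in HepG2. Of 56 genes, 23 were listed and passed the filter, 10 through HepG2 alone. Of 13 with a value of at least 1 in all 6 libraries, 4 (30.8% beside 9.01%) were higher in HepG2 and 2 (15.4% beside 7.66%) in LM3, with a median of 0.45.

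Antigen presentation and interferon genes also differed in both directions. CD74, the invariant chain of class II presentation, had 45.5, 45.9 and 46.4 in HepG2 and 0.14, 0.08 and 0.12 in LM3. OASL, an interferon-induced antiviral protein, had 201, 198 and 218 in HepG2 and 1.73, 2.08 and 1.66 in LM3, and IFITM1, which blocks virus entry, averaged 308 ± 14.9 in HepG2 and 4.85 ± 0.634 in LM3. These were higher in HepG2, at log2 differences of 5.40, 6.20 and 5.73. NLRC5, which drives genes of class I presentation, was higher in LM3 at 21.4 ± 1.41 in LM3 and 5.35 ± 0.161 in HepG2. PSMB9, a subunit of the immunoproteasome, averaged 19.4 ± 0.709 in LM3 and 4.87 ± 0.255 in HepG2, and HLA-F, a class I gene outside the classical ones, 21.7 ± 1.02 in LM3 and 3.74 ± 0.107 in HepG2, with the caution that HLA genes share reads. Of 62 genes, 46 were listed and 44 passed the filter, 6 through HepG2 alone. Of 36 with a value of at least 1 in all 6 libraries, 6 were higher in HepG2 (16.7% beside 9.01% of all such genes) and 4 in LM3 (11.1% beside 7.66%), with a median of 0.34 that was 0.02 after quantile normalization.

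Cell cycle genes differed in both directions. CDKN1A, the inhibitor p21, differed most and was higher in HepG2, at 165, 159.8 and 160.4 in HepG2 and 13.6, 12.4 and 10.9 in LM3 (log2 difference 3.62, limma adjusted p = 2.09e-09). RRM1, a subunit of ribonucleotide reductase, averaged 278 ± 12.4 in HepG2 and 97.4 ± 0.643 in LM3, and the inhibitor CDKN1B 54 ± 1.98 in HepG2 and 24.4 ± 0.391 in LM3. LM3 was higher for UBE2C, a ubiquitin-conjugating enzyme of mitotic exit, with 133, 135 and 131 in LM3 and 44.6, 43.1 and 47.9 in HepG2. The factor E2F1, which opens S phase, averaged 35.5 ± 5 in LM3 and 12.3 ± 1.45 in HepG2, and CDKN1C, an imprinted inhibitor, 110 ± 13.9 in LM3 and 30.4 ± 3.68 in HepG2. All 47 listed genes of 67 passed the filter with a value of at least 1 in all 6 libraries, 3 higher in HepG2 (6.38% beside 9.01% of all such genes) and 10 in LM3 (21.3% beside 7.66%), while 34 passed in neither direction. Their median was -0.50, and -0.48 after quantile normalization.

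Ribosomal protein genes took 13.8% of the summed values in HepG2 and 16.3% in LM3. Of 79 genes, 57 were listed and had a value of at least 1 in all 6 libraries. The 3 past the threshold were higher in LM3 (5.26% beside 7.66%). They were RPL35 with 2013, 2181 and 2379 in LM3 and 866, 986 and 876 in HepG2, RPL7A at 2138 ± 136 in LM3 and 1053 ± 31.4 in HepG2 and RPL31 at 1443 ± 30.4 in LM3 and 702 ± 19 in HepG2, and the median of the 57 was -0.11. Ribosomal proteins have many processed pseudogenes, so these values are uncertain. ACTB, the cytoskeletal actin often used as a reference gene, had 2948, 3221 and 3357 in LM3 and 1944, 2020.3 and 1849 in HepG2, and its difference of -0.71 stayed under the threshold, as did that of GAPDH at 0.97. Both differences exceeded the spread between libraries, but they depended on the scaling used. Median-of-ratios scaling left them at -0.71 and 0.98. After quantile normalization the log2 difference of ACTB was -1.07, past the threshold, and that of GAPDH 0.10. Without HepG2 replicate 3 or LM3 replicate 2 GAPDH reached 1.02, and it also passed without LM3 replicate 3. RPL31 dropped under the threshold after quantile normalization, and RPL7A without LM3 replicate 2 or 3, each at -0.99.

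Several of the largest differences toward LM3 lay outside these lists. SPINK5, a protease inhibitor of skin and other epithelia, had 132, 112 and 107 in LM3 and 0.15, 0.1 and 0.17 in HepG2. CGA, which encodes the alpha subunit shared by the pituitary glycoprotein hormones, had 27.4, 26.6 and 26.9 in LM3 and 0.36, 0.7 and 0.44 in HepG2. EEF1A2, the elongation factor form of muscle and nerve, averaged 506 ± 38 in LM3 and 31.9 ± 2.62 in HepG2. PDE2A, which breaks down cyclic nucleotides, averaged 14.3 ± 1.54 in LM3 and 0.12 ± 0.0361 in HepG2, and UCP2, a carrier of the inner mitochondrial membrane, 125 ± 8.26 in LM3 and 8.29 ± 0.458 in HepG2. SPINK5, CGA and PDE2A passed the filter through LM3 alone.

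Marker lists of other cell types were measured in both lines, and their part in the differences was not tested. Of 15 leukocyte markers 4 were listed, with sums of 130, 127 and 124 in HepG2 and 18.2, 15.1 and 16.2 in LM3. PTPRC, the common leukocyte marker, was not among the listed genes. LYZ, lysozyme, made up most of the HepG2 sum at 82.7 ± 4.86 in HepG2 and 1.6 ± 0.208 in LM3, CD68, a lysosomal protein, was the most abundant in LM3, and CD3D, of the T cell receptor, was at 2.27, 1.9 and 1.38 in HepG2 and listed at 0 in LM3. Of 11 endothelial markers 4 were listed, with sums of 37.4, 42.7 and 39.9 in HepG2 and 85.5, 101 and 99.3 in LM3. The most abundant were ENG in HepG2 and EGFL7, a secreted vascular factor, in LM3, the latter at 47.7 ± 5.47 in LM3 and 10.3 ± 1.18 in HepG2.

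Stellate cell and fibroblast markers (8 of 12 listed) summed to 112, 114 and 117 in HepG2 and 17.5, 16.4 and 14.7 in LM3. RGS5, a regulator of G proteins in pericytes, led in HepG2 with 31.9 ± 2.44 in HepG2 and 0.29 ± 0.0656 in LM3, and LUM, a matrix proteoglycan, averaged 14.5 ± 0.375 in HepG2 and 0.0167 ± 0.0153 in LM3. COL1A1 was the most abundant in LM3. Cholangiocyte markers (9 of 11 listed) summed to 955, 962 and 896 in HepG2 and 281, 312 and 317 in LM3. SPP1, the secreted protein osteopontin, led in HepG2 at 390, 352 and 337 in HepG2 and 0, 0.3 and 0.14 in LM3, while KRT7 led in LM3 and the water channel AQP1 was higher in LM3, at 3.19 ± 0.223 in LM3 and 0.233 ± 0.0603 in HepG2. Keratinocyte and neural markers (3 of 11 listed) summed to 126, 130 and 113 in HepG2 and 74.2, 87.2 and 83.9 in LM3, with ENO2, a glycolytic enzyme also made outside neurons, leading in HepG2 and TUBB3 in LM3. Several of these genes, such as SPP1, KRT7 and ENO2, are also made by liver cancer cells. Of members with a value of at least 1 in all 6 libraries, 2 of 2 leukocyte and 1 of 2 keratinocyte and neural markers were higher in HepG2, and 1 of 2 endothelial markers was higher in LM3, beside 9.01% and 7.66% of all such genes. Of 4 such cholangiocyte markers 1 was higher in each line, and the 2 stellate and fibroblast markers did not pass the threshold.

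Genes on in one line and off in the other were taken as those with a value of at least 1 in all 3 siNC libraries of the first and at most 0.1 in all 3 of the second. Since the same values chose them, no test applies. HepG2 had 249 such genes, 2.82% of those listed, and LM3 had 2. These numbers cannot be told apart from the make-up of the list. At most 0.204% of the listed genes were at 0 in a HepG2 library, against at least 2.69% in an LM3 library. The median level of the 249 was 3.98, 56 of them had a mean of at least 10, and 72 were listed at 0 in all 3 LM3 libraries. The most abundant were APOC1, ALDH1A1, ITIH2, APOC2, MAGEB2, HP, PGC and FGG. PGC, the stomach protease precursor pepsinogen C, had 63.5, 60.2 and 58.7 in HepG2 and was listed at 0 in LM3. The 2 genes on in LM3 alone were TFPI2, an inhibitor of plasma proteases, with 9.64, 10.2 and 9.46 in LM3 and 0.08, 0.06 and 0.1 in HepG2, and DIO3, which inactivates thyroid hormone, with 1.07, 1.26 and 1.35 in LM3 and 0.02, 0.02 and 0.05 in HepG2. Just inside the limit, 16 of the 249 genes had a highest LM3 value of exactly 0.1, and just outside it 6 had 0.11. Of the 249, 70 were on a list, beside 693 listed members of any list. They included 19 of 65 secreted plasma proteins, 7 of 22 liver transcription factors and none of 47 cell cycle genes or 57 ribosomal proteins, beside 2.82% of all listed genes. In the siFASRL libraries, which did not choose them, 173 of the 249 were again at 1 or more in all HepG2 libraries, 241 were at most 0.1 in all LM3 libraries, and 165 met both conditions. Neither of the 2 LM3 genes met both, as HepG2 under siFASRL averaged 0.783 ± 0.112 for TFPI2 and 0.203 ± 0.0503 for DIO3. DIO3 was also under 1 in LM3 replicate 3 under siFASRL, at 0.92.

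Many of the most abundant HepG2 transcripts were not at 0 in LM3. For 27 genes with a HepG2 mean of at least 100 and an LM3 mean of at most 1% of it, the median LM3 value as a percent of the HepG2 siNC mean was 0.0215 in LM3 replicate 1, 0.113 in replicate 2 and 0.0826 in replicate 3. Replicate 1 was the lowest of the 3 for 22 of the 27. In the siFASRL libraries of LM3, set against the same HepG2 siNC means, the medians were 0.0451, 0.00433 and 0.0143. ALB at 0.06, 0.62 and 0.4 and AFP at 0.04, 0.45 and 0.39 are examples, and 1 of the 27 genes met the definition of off in LM3. The source of these low values was not tested.

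Chromosomes differed in their median, although position was not used to choose genes. Among genes that reached 1 in all 6 libraries, the 369 on chromosome 6 had a median log2 difference of 0.52. Counting differences of any size, here and for the other chromosomes, 81.3% of these 369 were higher in HepG2 beside 45.7% of all genes. On chromosome 6, 83 of the 369 genes passed the threshold toward HepG2 and 8 toward LM3, beside 9.01% and 7.66% of all 7255 such genes. Chromosome 7 had the lowest median at -0.40, with 21.2% of 363 genes higher in HepG2, followed by the X chromosome at -0.38 with 27.5% of 204 genes. Chromosomes 14 and 4 had medians of 0.24 and 0.21. When 1 library of either line was set against the mean of the other line, the median of chromosome 6 ran from 0.52 to 0.55. That of chromosome 7 ran from -0.44 to -0.41 and that of the X chromosome from -0.43 to -0.34. The X chromosome was the lower of these with HepG2 replicate 2 (-0.43 against -0.41) and with LM3 replicate 1 (-0.43 against -0.42). Genes of a chromosome are not independent, and copy number was not measured here.

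**Figure D4:**
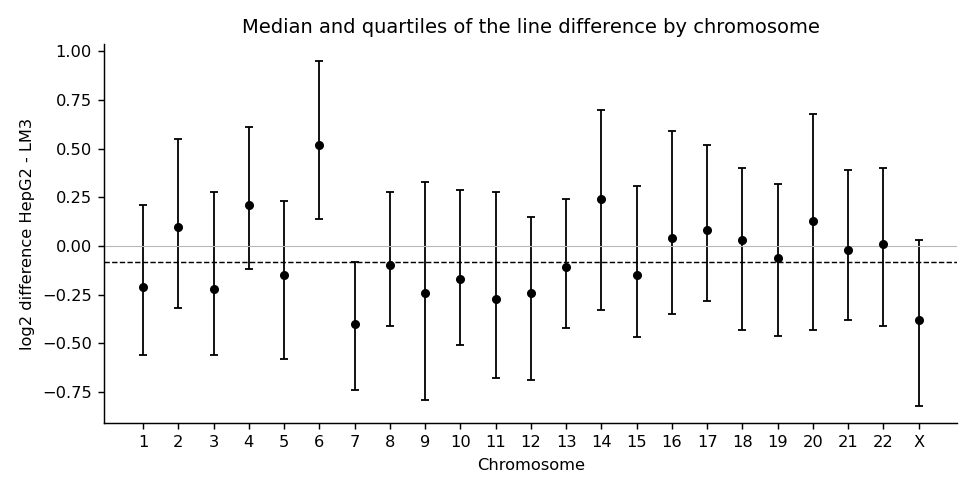
Median (point) and quartiles (bars) of the log2 difference of HepG2 minus LM3 on each chromosome, over genes that reached 1 in all 6 siNC libraries, with the median of all genes (-0.08) dashed. Chromosome 6 lies highest at 0.52, and chromosomes 7 and X lie lowest at -0.40 and -0.38.

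The same comparison of the lines was made in the 6 siFASRL libraries, none of which enter the siNC comparison. FASRL itself was not found by that name among the listed genes, so the knockdown was not checked here. Of 7920 tested genes, 1808 (22.8%) passed the threshold, 1299 (16.4%) higher in HepG2 and 509 (6.43%) in LM3. Quantile normalization gave 953 higher in HepG2 and 797 in LM3. Of 7814 genes tested under both siRNAs, 959 were higher in HepG2 both times, which is 84.6% of the 1133 under siNC and 77.2% of the 1243 under siFASRL. For LM3 the shared number was 388, or 62.8% of 618 and 76.5% of 507. Whether the line difference of any gene itself differed between the siRNAs was not tested.

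Named genes mostly kept their direction. Of 123 genes chosen by the rule, 114 passed the threshold under siNC. Of these, 111 were tested under siFASRL, and 105 passed there in the same direction. The rule had chosen many of them for large differences under siNC. Over all genes called under siNC and tested in both, the shares were 84.6% for HepG2 and 62.8% for LM3. SERPINA1 had log2 differences of 9.53 under siNC and 9.65 under siFASRL, and FOLR1 -8.08 and -9.96. For ALB the siFASRL values were 235 ± 5.62 in HepG2 and 0.0633 ± 0.11 in LM3, a log2 difference of 7.80. CDH1, CDKN1B, CREB3L3, FOXA1 and SLC22A18 passed under siNC alone, with siFASRL differences in the same direction of 0.99, 0.83, -0.77, 0.99 and -0.58. FOXA1, a pioneer factor of liver and other endoderm, averaged 15.5 ± 0.29 in HepG2 and 4.1 ± 0.108 in LM3 under siNC. NES, which encodes the filament protein nestin, was the single gene past the threshold in opposite directions, with 10.2, 9.75 and 8.92 in LM3 and 3.19, 3.18 and 3.11 in HepG2 under siNC and 8.22 ± 0.452 in HepG2 and 2.32 ± 0.164 in LM3 under siFASRL.

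**Figure D5:**
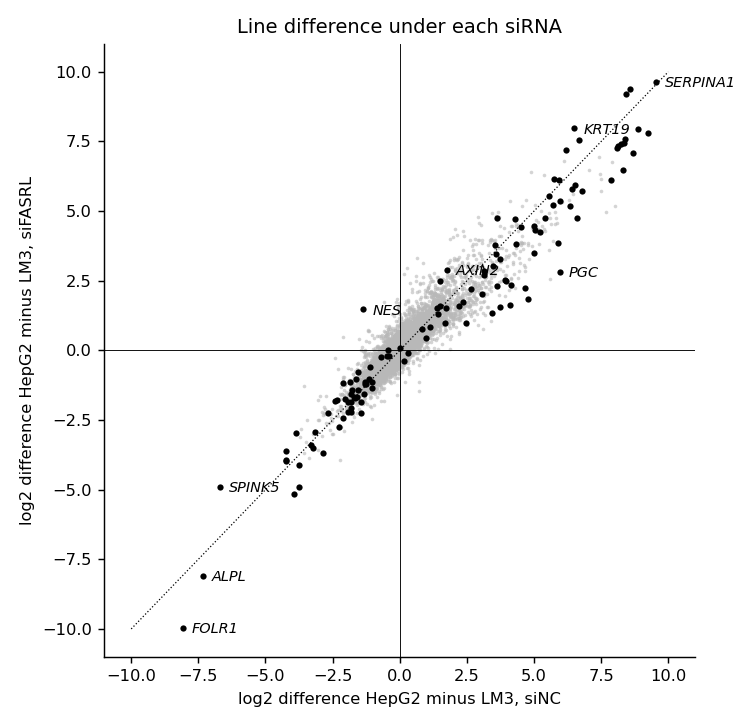
Log2 difference of HepG2 minus LM3 under siNC (x axis) and siFASRL (y axis) for the 7814 genes tested under both, with named genes in black and the line of equal differences dotted. Points run along that line from FOLR1 (-8.08 and -9.96) to SERPINA1 (9.53 and 9.65), and NES lies apart at -1.35 and 1.48.

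With 3 libraries a side, the two-sided exact permutation test of a single gene cannot go below p = 0.1.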

How the data were processed

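Per the labels and the study's methods, the authors filtered reads with SOAPnuke, aligned them with HISAT2 and Bowtie2, and deposited RSEM expression values per gene with 2 decimals. They are not counts, and whether they are FPKM or TPM is not stated. The labels name hg19, but the deposited chromosome accessions belong to GRCh38. All 12 libraries list the same 8842 genes, of which 8790 matched the RefSeq gene table and 17 symbols turned into dates were restored. 6 columns that repeat other libraries were not used. limma 3.58.1 in R 4.3.3 was fitted to log2(value + 1) of the 6 siNC libraries, with genes at 1 or more in at least 3 libraries, Benjamini-Hochberg adjustment over all tested genes, and a threshold of 1 on the log2 scale and 0.05 on the adjusted p. Such log2 differences understate those of low genes. The fit was also run on simulated data, with the outcome not given here. Named genes were the 10 largest differences per direction with a mean of at least 10, the 3 largest per list and direction, the 8 most abundant genes restricted to a line, and 29 fixed genes, 26 of them listed. Other genes named in the text fall outside this rule and were chosen after their values were seen. Some genes that the rule names, and a further motif that was searched, are not reported here. The members and the 20 lists were chosen with earlier results of these data known. Alternatives were another pseudocount, other filters, median-of-ratios and quantile scaling, other thresholds, a replicate block and leaving out libraries. Python 3.11.15, pandas 2.3.3 and matplotlib 3.10.9 were used.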

Additional observations from a re-analysis of the deposited data

Results flagged for a closer look

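The difference between the lines in NES, the nestin gene, ran in opposite directions under the 2 siRNAs, at -1.35 on the log2 scale under siNC and 1.48 under siFASRL. Every siNC library of LM3 was above every siNC library of HepG2, and every siFASRL library of LM3 was below every siFASRL library of HepG2. The difference between the 2 siRNAs was not tested here.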

How the results depend on the processing

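Directions and calls of the 123 named genes were the same with a pseudocount of 0.1 and with median-of-ratios scaling. They were also the same with no filter, a fit on all 12 libraries, a trended prior variance and the replicate block. Each of these last settings leaves the log2 differences as they were, so only the adjusted p could have changed a call. CDH2, at 0.01, turned to -0.02 with quantile normalization, and without single libraries it ran from -0.02 to 0.06, with -0.01 without LM3 replicate 1. Quantile normalization kept 120 of the 123. Whether replicate numbers pair the libraries was not settled. Deviations of libraries with the same number correlated at 0.456, 0.539 and -0.291 under siNC, and those with different numbers from -0.646 to 0.468. Under siFASRL they correlated at 0.059, 0.046 and 0.043 with the same number and from -0.054 to 0.011 with different numbers. The replicate block left 1911 and 1808 calls, with 1278 and 1299 higher in HepG2. With balanced groups the block cannot move the log2 differences. Leaving out 1 library gave 1898 to 1939 calls under siNC and 1793 to 1816 under siFASRL.

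Requiring a value of at least 1 in all 6 libraries tests fewer genes and gave 1210 calls under siNC (654 higher in HepG2) and 1108 under siFASRL (676 higher in HepG2). Without a fold threshold there were 6618 (3318 and 3300) and 6699 (3579 and 3120), and with a threshold of 2 there were 588 (502 and 86) and 540 (466 and 74). Quantile normalization raised the LM3 side under siFASRL to 797, and the cause was not tested. Over all 7255 genes that reached 1 in all 6 siNC libraries, 9.01% were higher in HepG2 and 7.66% in LM3. Sizes and shares of the lists are given above. In the lists, requiring 1 in all 6 libraries left as higher in HepG2 3 transcription factors, 12 plasma proteins, 3 lipoprotein genes, 7 drug metabolism genes, 3 transporters, 13 mesenchymal, 3 epithelial, 9 amino acid, 6 beta-catenin, 4 oncofetal and 6 interferon genes, and 2 leukocyte, 0 stellate cell and 1 cholangiocyte markers, with 1 cholangiocyte marker higher in LM3. Higher in LM3 were 1 plasma protein at a pseudocount of 0.1 (0 to 1 without single libraries) and 2 lipoprotein genes at that pseudocount and after quantile normalization (1 to 2 without single libraries). Of the 22 transporters that passed the filter, 10 through HepG2 alone, those higher in HepG2 fell from 13 to 8 after quantile normalization. Over all 8176 tested genes the number higher in HepG2 fell from 1278 to 1006. Transporters higher in LM3 were 1 to 2 without single libraries.

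Genes on in HepG2 alone numbered 72 with off set at 0, 473 with off at most 0.5 and 101 with on at least 5, against 0, 42 and 1 in LM3. Judged off by LM3 replicate 1 only, a setting chosen after seeing the data, they numbered 321. These numbers, too, cannot be told apart from the make-up of the list. For genes with a mean of at least 5, chromosome medians were -0.24 (1), -0.25 (3), 0.26 (4), -0.20 (5), 0.60 (6), -0.44 (7), -0.14 (8), -0.26 (9), 0.35 (14), -0.17 (15), 0.09 (16) and 0.09 (18), and median-of-ratios scaling gave -0.20 for chromosome 1. Read depth is unknown, so how far values near 0 can be told apart cannot be given.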
